A study of Mus musculus with 9 samples.

Results

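The genes of the oxidative phosphorylation complexes were followed across regulatory T cells (Tregs) from the gut of Y3/CD103-/-, Y3 and WT mice. Members were chosen by a symbol rule that used no measured values but was set with earlier results of these data known. It took Ndufa, Ndufb, Ndufc, Ndufs and Ndufv genes, Sdha to Sdhd, and the symbols that begin with Uqcr, Cox4i to Cox8 or Atp5. Symbols ending in -ps and a number were left out, and only array features annotated to exactly 1 gene were used. The rule found 92 members among 22180 genes, on 102 features. By symbol, 33 were put with complex I, 4 with complex II, 7 with complex III, 18 with complex IV and 17 with complex V (ATP synthase). The exception was Ndufa4, counted with complex IV, while its paralog Ndufa4l2, which was not tested, stayed with complex I by its symbol. Another 12 were assembly factors of complexes I and II, whose symbols begin like those of the subunits, and 1 was a pseudogene symbol, Atp5c1-ps, that met the letter of the rule.

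The study used 9 Affymetrix mouse Gene ST2.0 arrays, 3 each for Y3/CD103-/-, Y3 and WT mice, all on the C57BL/6 strain. The cells came from the lamina propria of small and large intestine together and were sorted by a Foxp3-linked red fluorescent reporter. Their RNA passed through 1 round of linear amplification, per the labels' protocols. Y3 is not described in the labels. The series title speaks of genes that depend on IL-2Rβ (gene Il2rb), a signalling chain of the IL-2 receptor, and on CD103 (gene Itgae), an integrin chain. No group lacked CD103 alone, so the loss of CD103 was seen on the Y3 background only, and both Y3 groups were set against the same 3 WT arrays. Whether the arrays of a group held separate animals or pools is not given in the labels. Every p-value therefore measures the spread between these arrays, whose small number limits precision.

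The complexes sit in the inner mitochondrial membrane. Complexes I and II pass electrons from NADH and succinate to ubiquinone, complexes III and IV carry them on to oxygen through cytochrome c, and ATP synthase uses the proton gradient built by complexes I, III and IV to make ATP. Most subunits are encoded in the nucleus and a minority in mitochondrial DNA (mtDNA), so that all but complex II are assembled from the products of both genomes. Tregs are known for drawing on oxidative metabolism, and loss of complex III function in mouse Tregs is known to impair their suppressive capacity.

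By Foxp3 the sorted populations read as Tregs. Foxp3, the transcription factor that defines them, averaged log2 9.55 ± 0.06 in Y3/CD103-/-, 9.52 ± 0.17 in Y3 and 9.38 ± 0.09 in WT (SD, n = 3 each). Of 11 Treg and T cell markers, 7 were higher and 4 lower in Y3/CD103-/- versus WT, and 8 and 3 in Y3 versus WT. Il2ra, another marker on that list, averaged 7.28 ± 0.16, 7.50 ± 0.10 and 8.15 ± 0.04 in the same order of groups. It lay below all WT arrays in both Y3 groups. In Y3/CD103-/- versus WT, 1 of the 11 was called, and it was lower (limma adjusted p 0.0258). Itgae read 6.64, 6.05 and 6.86 on the Y3/CD103-/- arrays, 9.35, 9.11 and 9.51 on the Y3 arrays and 8.06, 7.87 and 7.85 on the WT arrays, so the 3 groups did not overlap. Il2rb read 7.86, 8.48 and 8.14 in Y3/CD103-/-, 8.50, 8.10 and 7.87 in Y3 and 9.27, 8.95 and 9.36 in WT. Markers of other cells differed between arrays and between groups. In Y3 versus WT, 23 of 26 intestinal epithelial, 12 of 14 myeloid, 5 of 7 B and plasma cell and 3 of 4 stromal markers were lower. In Y3/CD103-/- versus WT, 23, 8, 6 and 3 of them were lower. Of all genes, 70.5% and 55.1% were higher in these comparisons. Only 1 of these markers was called, a myeloid one that was lower in Y3 versus WT (limma adjusted p 0.0264). The mean of 26 intestinal epithelial markers ran from 3.85 to 5.56 on the Y3/CD103-/- arrays, 3.88 to 4.58 on the Y3 arrays and 4.78 to 5.77 on the WT arrays, and that of 14 myeloid markers from 4.65 to 4.79, 4.16 to 4.26 and 4.46 to 5.11 in the same order. The 9 CD8, gamma delta and NK cell markers averaged 5.72 to 6.05 in Y3/CD103-/-, 5.90 to 6.11 in Y3 and 5.32 to 5.46 in WT. These markers did not move together. In Y3 versus WT 7 were higher, among them Nkg7 (means of 8.67 and 6.65) and Gzma (10.30 and 9.09). The 2 that were lower were Cd8b1 (4.22 and 4.47) and Ncr1 (3.69 and 3.87). Of the 9, 3 were called higher in Y3/CD103-/- versus WT and 3 in Y3 versus WT, where 0.555% and 0.618% of all genes were. The part of these cells in the results was not tested, apart from a fit with the epithelial mean as a covariate, whose values are given below for those named members with a difference over 0.4 in size that it moved by over 1.5 times. In sorted bulk RNA, fewer cells of a type and less RNA per cell cannot be told apart.

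Of the 92 members, 85 exceeded the array's own median signal on 3 or more of the 9 arrays and were tested, with the same filter leaving 12792 genes in all. The other 7 were Cox6b2, Cox7b2, Cox8b, Cox8c, Ndufa4l2, Sdhaf3 and Atp5c1-ps, which read between log2 1.22 and 3.42 on every array. The first 5 of these are paralogs of ubiquitous subunits that are known mainly from testis, muscle or other specialised tissues. All differences below are log2 differences between group means from 1 limma model of the 9 arrays, and a gene was said to change at a 2-sided Benjamini-Hochberg adjusted p under 0.05 over all 12792 genes.

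Promoters of 5 members, which fell 1 to each complex, are printed here. Sdhd, Uqcr11, Cox8a and Atp5g3 stood apart from WT on the same side in both Y3 groups, and Ndufs4 had the smallest p in Y3 versus WT. Of all 12792 tested genes, 256 stood apart below WT and 845 above it in both Y3 groups. None of the 5 passed the test, and some members with larger differences are not printed. The sequences are the 250 bases before and 30 bases after the gene start, from RefSeq on GRCm38.p6. All are from the minus strand and written 5′ to 3′. Ndufs4 (complex I) lies at chr13:114388065-114388344, Sdhd (complex II) at chr9:50603820-50604099, Uqcr11 (complex III) at chr10:80406792-80407071, Cox8a (complex IV) at chr19:7217587-7217866 and Atp5g3 (complex V) at chr2:73911297-73911576. Capitals mark the letters CCGGAAG, a core motif of the ETS factor GABPA (also called NRF2), or GCGCATGC, a core of the motif of NRF1, on either strand. Both factors are known regulators of nuclear genes for respiratory chain subunits.
Ndufs4: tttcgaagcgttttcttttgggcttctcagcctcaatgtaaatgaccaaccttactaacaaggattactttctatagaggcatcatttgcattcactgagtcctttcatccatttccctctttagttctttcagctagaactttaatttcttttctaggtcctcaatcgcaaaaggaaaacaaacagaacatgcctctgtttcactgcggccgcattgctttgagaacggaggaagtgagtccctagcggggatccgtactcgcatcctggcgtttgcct
Sdhd: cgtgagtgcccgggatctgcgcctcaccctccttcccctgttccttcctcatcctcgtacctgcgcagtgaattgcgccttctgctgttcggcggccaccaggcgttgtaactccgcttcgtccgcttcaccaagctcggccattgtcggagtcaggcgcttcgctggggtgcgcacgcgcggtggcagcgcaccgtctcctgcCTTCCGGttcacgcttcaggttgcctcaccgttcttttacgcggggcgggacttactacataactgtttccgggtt
Uqcr11: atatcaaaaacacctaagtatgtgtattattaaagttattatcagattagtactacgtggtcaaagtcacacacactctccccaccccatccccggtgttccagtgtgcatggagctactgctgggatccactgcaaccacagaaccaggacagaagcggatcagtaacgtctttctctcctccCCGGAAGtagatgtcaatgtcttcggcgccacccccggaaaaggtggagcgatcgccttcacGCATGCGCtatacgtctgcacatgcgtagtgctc
Cox8a: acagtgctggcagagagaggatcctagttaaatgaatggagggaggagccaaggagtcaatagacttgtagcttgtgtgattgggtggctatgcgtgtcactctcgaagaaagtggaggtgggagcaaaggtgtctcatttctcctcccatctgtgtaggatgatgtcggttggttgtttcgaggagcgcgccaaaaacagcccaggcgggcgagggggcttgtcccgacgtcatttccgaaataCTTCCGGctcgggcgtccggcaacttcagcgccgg
Atp5g3: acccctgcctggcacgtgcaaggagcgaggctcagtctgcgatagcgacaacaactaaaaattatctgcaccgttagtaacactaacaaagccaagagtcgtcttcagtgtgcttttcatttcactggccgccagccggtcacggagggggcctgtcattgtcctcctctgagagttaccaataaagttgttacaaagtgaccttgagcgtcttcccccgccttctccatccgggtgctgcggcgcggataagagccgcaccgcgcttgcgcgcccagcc

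Uqcr11 held both motifs, the GABPA letters starting 66 bases before the gene start and the NRF1 letters, on the other strand, 4 bases before it. Sdhd held the GABPA letters on the other strand 46 bases before the start, and Cox8a 5 bases before it. Ndufs4 and Atp5g3 held neither set of letters in this window. Promoters were on hand for 76 members, some of them not tested, and a gene counted if any of its promoters held the letters. The GABPA letters were found in 22 of them (28.9%), among them the untested Sdhaf3, against 17.7% of 9962 tested genes and 9.48% of all 27025 genes with promoters of the same length. The NRF1 letters were found in 11 (14.5%), against 5.27% of the tested genes and 2.92% of all genes with promoters. The YY1 letters AAGATGGCG were in 2 members (2.63%, against 2.35% of the tested genes and 1.22% of all), and the cAMP response element letters TGACGTCA in 3 (3.95%, against 3.36% and 1.99%). The GABPA letters end in the AAG with which the YY1 letters begin, so a site can hold both, and both members with the YY1 letters (Atp5j and Ndufaf8) also held the GABPA letters. A match is a description of the sequence only. The transcript of Gabpa itself differed by 0.03 ± 0.14 (SE) in Y3/CD103-/- versus WT and by 0.16 ± 0.14 in Y3 versus WT, and that of Nrf1 by 0.34 ± 0.20 and 0.37 ± 0.20, none of which passed the test (limma, smallest adjusted p 0.373).

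No subunit or assembly factor passed the test in any of the 3 comparisons. In Y3 versus WT, 0 of 85 members were called at an adjusted p under 0.05, where 0.79% of all genes were (0.618% higher and 0.172% lower). Their differences ran from -0.45 to 0.70, and 72 of the 85 (84.7%) were above 0, against 70.5% of all genes. The members' median was 0.20 and that of all tested genes 0.15, so the members leaned the same way as the whole array. At an unadjusted p under 0.05, 10 members were higher (11.8%, against 13.4% of all genes) and 1 was lower (1.18%, against 3.6%), where 17% of all genes were past that mark. The 3 Y3 arrays lay above the 3 WT arrays for 18 members and below them for 2, 23.5% in all, and the same held for 19% and 4.93% of all genes, 23.9% in all. The shares of members past either mark were close to those of all genes.

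In Y3/CD103-/- versus WT the members were balanced. None of the 85 was called, where 0.836% of all genes were (0.555% higher and 0.281% lower), and 41 lay above 0 and 44 below (48.2% above, against 55.1% of all genes). The median was -0.01, that of all genes 0.04, and the range -0.74 to 0.59. At an unadjusted p under 0.05, 3 members were higher and 5 lower (5.88%), against 7.9% and 5.35% of all genes (13.3% in all). The groups did not overlap for 8 members that lay higher and 6 that lay lower (16.5% together), against 10.7% and 6.68% of all genes (17.4% in all).

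In Y3/CD103-/- versus Y3, the comparison that bears on CD103 with Y3 in both groups, none of the 85 was called, and only 1 gene of all tested was (0.00782%). The members leaned down: 70 lay below 0 and 15 above (17.6% above, against 33.8% of all genes), with a median of -0.15 beside -0.10 for all genes. At an unadjusted p under 0.05, 0 members were higher and 12 lower, against 1.78% and 8.12% of all genes (9.9% in all). The Y3/CD103-/- arrays lay below the Y3 arrays for 20 members and above them for 0, against 14.4% and 4.11% of all genes (18.6% in all). This lean and the upward one in Y3 versus WT share the Y3 arrays and are not separate pieces of evidence.

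**Figure D1:**
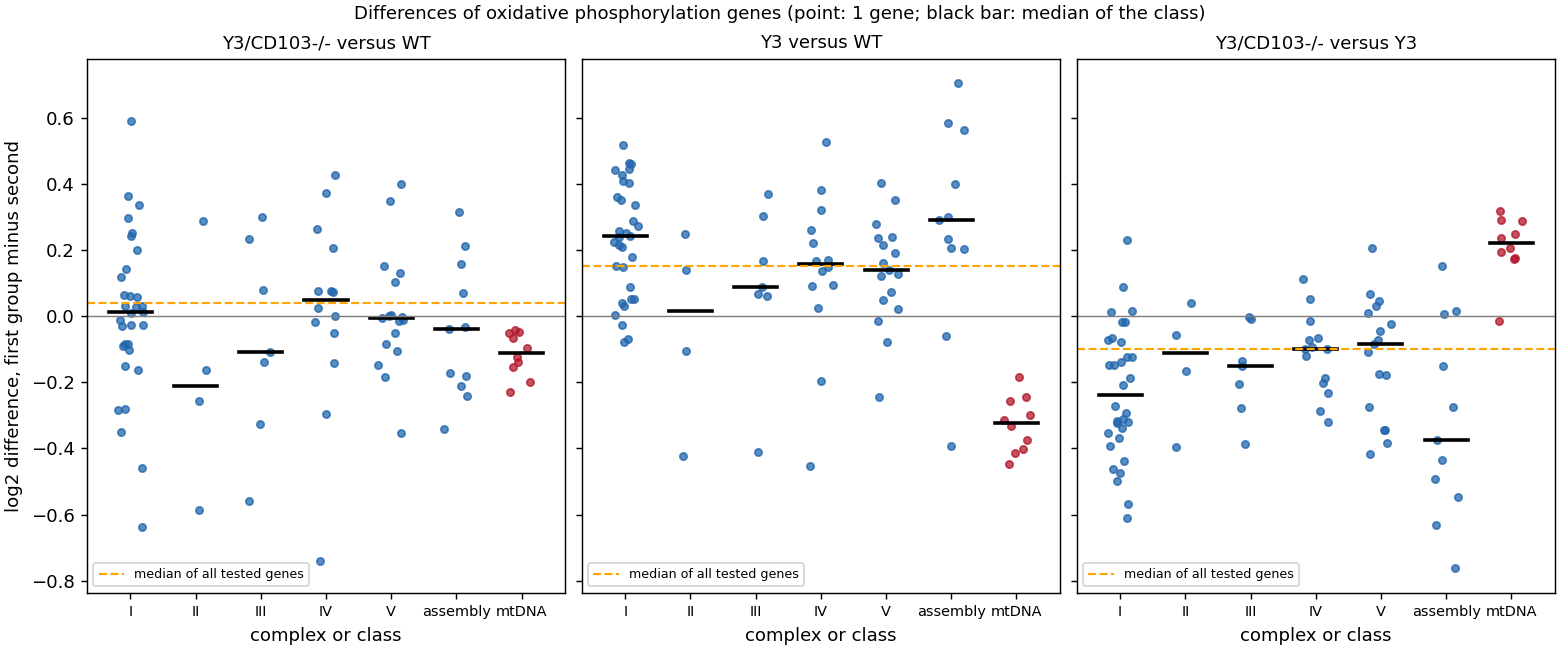
Log2 differences (y axis, first group minus second) of the tested subunits of complexes I to V, of the assembly factors and of the mtDNA-encoded subunits, 1 point per gene, with the median of each class as a black bar and that of all 12792 tested genes as a dashed line. In Y3 versus WT the nuclear classes spread around the dashed line at 0.15 while all 10 mtDNA-encoded subunits lie below 0, with a median of -0.32.

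The absence of calls came with fairly narrow intervals. The 95% interval of the difference stayed within 1 log2 unit (2-fold) of 0 for 80 of 85 members in Y3/CD103-/- versus WT, 80 in Y3 versus WT and 78 in Y3/CD103-/- versus Y3. The same held for 86%, 84% and 88.5% of all tested genes. The widest bounds were those of Cox7a1, whose interval reached -1.33 in Y3/CD103-/- versus WT, Sdhaf4, which reached -1.34 in Y3/CD103-/- versus Y3, and Ndufaf2, which reached 1.26 in Y3 versus WT. For the median member the interval of Y3 versus WT reached 0.39 to either side, against 0.45 for the median gene. These intervals are not adjusted for the number of genes, so a call needed a larger difference than that. Ndufs4 at 0.52 and Ndufaf2 at 0.70 in Y3 versus WT were not called (limma adjusted p 0.143 and 0.208).

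Complex I, the NADH dehydrogenase, had the most members and a median of 0.01 in Y3/CD103-/- versus WT, 0.24 in Y3 versus WT and -0.24 in Y3/CD103-/- versus Y3. In Y3 versus WT 29 of its 32 tested subunits lay above 0 and 3 below. Ndufs4, an accessory subunit that stabilises the NADH-oxidising module and is mutated in human Leigh syndrome, had the smallest p of any member in that comparison. It read 7.32, 7.53 and 7.47 in Y3/CD103-/- and 7.79, 7.64 and 7.84 in Y3, against 7.35, 7.32 and 7.05 in WT. Every Y3 array was above every WT array, and the difference was 0.52 (SE 0.15, 95% interval 0.18 to 0.85), with a limma adjusted p of 0.143. Its adjusted p ran from 0.0306, with a mean-dependent robust prior, to 0.435, without Y3 replicate 3, over 20 alternatives.

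Ndufa13 (also GRIM-19), a membrane-arm subunit, read 7.94, 7.73 and 7.93 in Y3, against 7.32, 7.44 and 7.52 in WT. Its Y3 and WT arrays did not overlap, with a difference of 0.44 (SE 0.16, adjusted p 0.206). Ndufa6, an accessory subunit of the LYR family, read 8.07, 8.07 and 8.37 in Y3 and 7.66, 8.02 and 7.50 in WT, a difference of 0.44 (SE 0.18, adjusted p 0.241).

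Between the Y3 groups, the smallest p of any member was that of Ndufa1. This gene, which encodes a small X-linked subunit needed to assemble the membrane arm, read 7.42, 7.75 and 7.68 in Y3/CD103-/- and 8.17, 8.01 and 8.37 in Y3, with 7.90, 7.87 and 7.92 in WT. The 3 groups did not overlap, with Y3 highest and Y3/CD103-/- lowest. The difference between the Y3 groups was -0.57 (SE 0.16, 95% interval -0.92 to -0.22), with an adjusted p of 0.333 that ran from 0.11 to 0.892 over 20 alternatives. Ndufc2, another small membrane-arm subunit, read 7.04, 7.16 and 7.28 in Y3/CD103-/-, below all arrays of Y3 (7.62, 7.50 and 7.67) and of WT (7.43, 7.46 and 7.64). Its differences were -0.44 versus Y3 (SE 0.15, adjusted p 0.406) and -0.35 versus WT (adjusted p 0.328). Ndufb9, a LYR-family subunit, differed by -0.50 between Y3/CD103-/- and Y3 (SE 0.21, adjusted p 0.475), with readings of 6.85, 7.39 and 7.33 against 7.58, 7.46 and 8.02.

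In Y3/CD103-/- versus WT, the membrane-arm subunits of smallest p besides Ndufc2 differed in opposite directions. Ndufb11 read 5.92, 5.67 and 5.68 in Y3/CD103-/-, all above the WT arrays at 5.59, 5.24 and 4.67, a difference of 0.59 (SE 0.23, adjusted p 0.294). Ndufb3 read 4.53, 5.31 and 5.06 in Y3/CD103-/- and 5.90, 5.63 and 5.29 in WT, so the groups overlapped, with a difference of -0.64 (SE 0.26, adjusted p 0.319). Ndufa12, another accessory subunit, had features that gave -0.46 and -0.48 in that comparison.

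Complex II, succinate dehydrogenase, is encoded by nuclear genes alone, and none of its 4 subunits passed the test. Sdhd, the small membrane anchor, lay lower in both Y3 groups: 5.53, 5.40 and 4.90 in Y3/CD103-/- and 5.53, 5.42 and 5.37 in Y3, against 5.60, 5.87 and 6.12 in WT. Neither Y3 group overlapped WT. The differences were -0.59 (SE 0.20, 95% interval -1.03 to -0.15, adjusted p 0.226) and -0.42 (SE 0.20, 95% interval -0.86 to 0.02, adjusted p 0.311). With the epithelial mean as a covariate, the Y3 difference of Sdhd was -0.25 (adjusted p 0.699). Sdha, the flavoprotein with the succinate site, read 6.59, 7.08 and 7.06 in Y3/CD103-/-, 7.38, 7.20 and 7.32 in Y3 and 7.13, 7.17 and 7.19 in WT. The Y3/CD103-/- arrays lay below the other groups without overlap, and the difference from Y3 was -0.39 (SE 0.17, adjusted p 0.476). Sdhb, the iron-sulphur subunit, read 5.77, 5.94 and 5.74 in Y3/CD103-/- and 5.76, 5.86 and 5.72 in Y3, against 5.22, 5.64 and 5.73 in WT, with differences of 0.29 (adjusted p 0.508) and 0.25 (adjusted p 0.479). Sdhc, the other anchor, differed by -0.16 and -0.11 in the same comparisons.

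Complex III, the cytochrome bc1 complex, had 7 members, with medians of -0.11 in Y3/CD103-/- versus WT, 0.09 in Y3 versus WT and -0.15 in Y3/CD103-/- versus Y3. Uqcr11, which encodes a small accessory subunit, had the smallest p of any member in Y3/CD103-/- versus WT. It read 5.55, 5.31 and 5.29 in Y3/CD103-/- and 5.48, 5.54 and 5.58 in Y3, against 5.81, 6.21 and 5.82 in WT. All arrays of both Y3 groups lay below all WT arrays. The difference was -0.56 for Y3/CD103-/- (SE 0.16, 95% interval -0.92 to -0.20, adjusted p 0.161) and -0.41 for Y3 (SE 0.16, 95% interval -0.77 to -0.05, adjusted p 0.241). With the epithelial mean as a covariate, the Y3 difference of Uqcr11 was -0.23 (adjusted p 0.643).

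Of the other 6 complex III genes, all lay above 0 in Y3 versus WT, and 3 lay above and 3 below in Y3/CD103-/- versus WT, where Uqcrb gave -0.33, Uqcrc2 -0.14 and Uqcrh -0.11. Uqcrc1, a core subunit, read 6.51, 6.26 and 6.57 in Y3/CD103-/- and 6.59, 6.20 and 6.56 in Y3, against 6.16, 6.25 and 6.03 in WT, a difference of 0.30 in each (adjusted p 0.485 and 0.383). Uqcrq, which lies beside cytochrome b, differed by 0.23 and 0.37 (adjusted p 0.643 and 0.339). Uqcrb, the ubiquinone-binding protein, differed by -0.39 between Y3/CD103-/- and Y3 (SE 0.21, adjusted p 0.559), with readings of 7.01, 7.18 and 7.14 against 7.65, 7.30 and 7.53. Uqcrh, the hinge protein that contacts cytochrome c1, differed by -0.28 there (adjusted p 0.585).

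Complex IV, cytochrome c oxidase, had 14 tested members of 18, with medians of 0.05 in Y3/CD103-/- versus WT, 0.16 in Y3 versus WT and -0.10 in Y3/CD103-/- versus Y3. Cox7c, a small structural subunit, read 5.55, 5.21 and 5.86 in Y3/CD103-/- and 5.64, 5.50 and 5.77 in Y3, against 5.25, 4.89 and 5.19 in WT. Its Y3 arrays lay above the WT arrays, and 1 Y3/CD103-/- array fell within the WT range. The differences were 0.43 (SE 0.19, adjusted p 0.369) and 0.53 (SE 0.19, 95% interval 0.10 to 0.95, adjusted p 0.215). Cox8a read 8.58, 8.63 and 8.40 in Y3/CD103-/- and 8.51, 8.46 and 8.67 in Y3, above every WT array at 8.33, 8.28 and 8.37, by 0.21 (adjusted p 0.585) and 0.22 (adjusted p 0.452). Cox7a2l is known from work on supercomplexes of complexes III and IV. It read 6.26, 6.06 and 6.25 in Y3/CD103-/-, 6.62, 6.43 and 6.48 in Y3 and 6.07, 6.14 and 6.35 in WT. Only its Y3 arrays stood apart, by 0.32 from WT (SE 0.15, adjusted p 0.309), and Y3/CD103-/- differed from Y3 by -0.32 (adjusted p 0.515).

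Several complex IV subunits come as tissue isoforms. Cox7a1, the isoform known from heart and skeletal muscle, read 3.27, 2.44 and 2.80 in Y3/CD103-/- and 2.83, 3.14 and 3.40 in Y3, against 3.50, 4.04 and 3.19 in WT. It passed the filter on all 3 WT arrays and on 1 array of each Y3 group, and its differences of -0.74 (SE 0.27, adjusted p 0.258) and -0.45 (adjusted p 0.406) rest on readings close to the array median. With the epithelial mean as a covariate, those of Cox7a1 were -0.48 (adjusted p 0.477) and -0.08 (adjusted p 0.928). Its widely expressed partner Cox7a2 differed by -0.05 and 0.15. Cox4i2, an isoform known from lung, read 3.84, 4.21 and 3.77 in Y3/CD103-/- against 3.71, 3.70 and 3.30 in WT, a difference of 0.37 (adjusted p 0.424), and the ubiquitous Cox4i1 differed by 0.07 (adjusted p 0.9). Cox6a1 and Cox6b1, ubiquitous isoforms, differed by 0.07 and 0.02 in Y3/CD103-/- versus WT and by 0.14 and 0.10 in Y3 versus WT, and the muscle isoform Cox6a2 by 0.26 and 0.38. Ndufa4, counted here with complex IV although its symbol carries the complex I prefix, differed by -0.14, 0.09 and, between the Y3 groups, -0.23 (adjusted p 0.666). For Cox7b the features did not point the same way in Y3/CD103-/- versus WT: the brighter gave -0.30 and the dimmer 0.71.

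Complex V, ATP synthase, had medians of -0.01 in Y3/CD103-/- versus WT, 0.14 in Y3 versus WT and -0.08 in Y3/CD103-/- versus Y3 over its 17 members. Atp5c1, the γ subunit that forms the central rotating stalk, read 4.85 to 5.03 in Y3/CD103-/-, 5.34, 5.35 and 5.44 in Y3 and 5.18, 4.80 and 4.95 in WT. All 3 Y3 arrays lay above the other 6. The difference was 0.40 from WT (SE 0.15, 95% interval 0.06 to 0.74, adjusted p 0.227), and Y3/CD103-/- differed from Y3 by -0.42 (SE 0.15, adjusted p 0.441). Atp5d, the δ subunit of the same stalk, read 8.85, 8.86 and 8.89 in Y3/CD103-/- and 8.66, 8.75 and 9.04 in Y3, against 8.32, 8.67 and 8.41 in WT. The Y3/CD103-/- arrays stood above WT by 0.40 (SE 0.16, adjusted p 0.315), its second feature gave 0.41, and the Y3 difference was 0.35 (adjusted p 0.304).

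Of the 3 genes for the c subunit of the membrane rotor, which encode the same mature protein, Atp5g3 read 7.69, 7.65 and 7.72 in Y3/CD103-/- and 7.90, 7.68 and 8.01 in Y3, against 7.61, 7.56 and 7.59 in WT. It lay above WT on all 6 arrays of the Y3 groups, by 0.10 (adjusted p 0.811) and 0.28 (adjusted p 0.354). Atp5g2 differed by 0.00 and 0.05, and Atp5g1, above the array median on 1 array of each group, by 0.15 and 0.12. Atp5j (coupling factor 6) and Atp5mpl (a small proteolipid), which belong to the stator and membrane part, differed between Y3/CD103-/- and Y3 by -0.38 (adjusted p 0.474) and -0.34 (adjusted p 0.486), each without overlap. Atp5j2, the f subunit, and Atp5o, which ties the stator to the catalytic head, differed by -0.35 (adjusted p 0.562) and 0.35 (adjusted p 0.594) in Y3/CD103-/- versus WT.

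**Figure D2:**
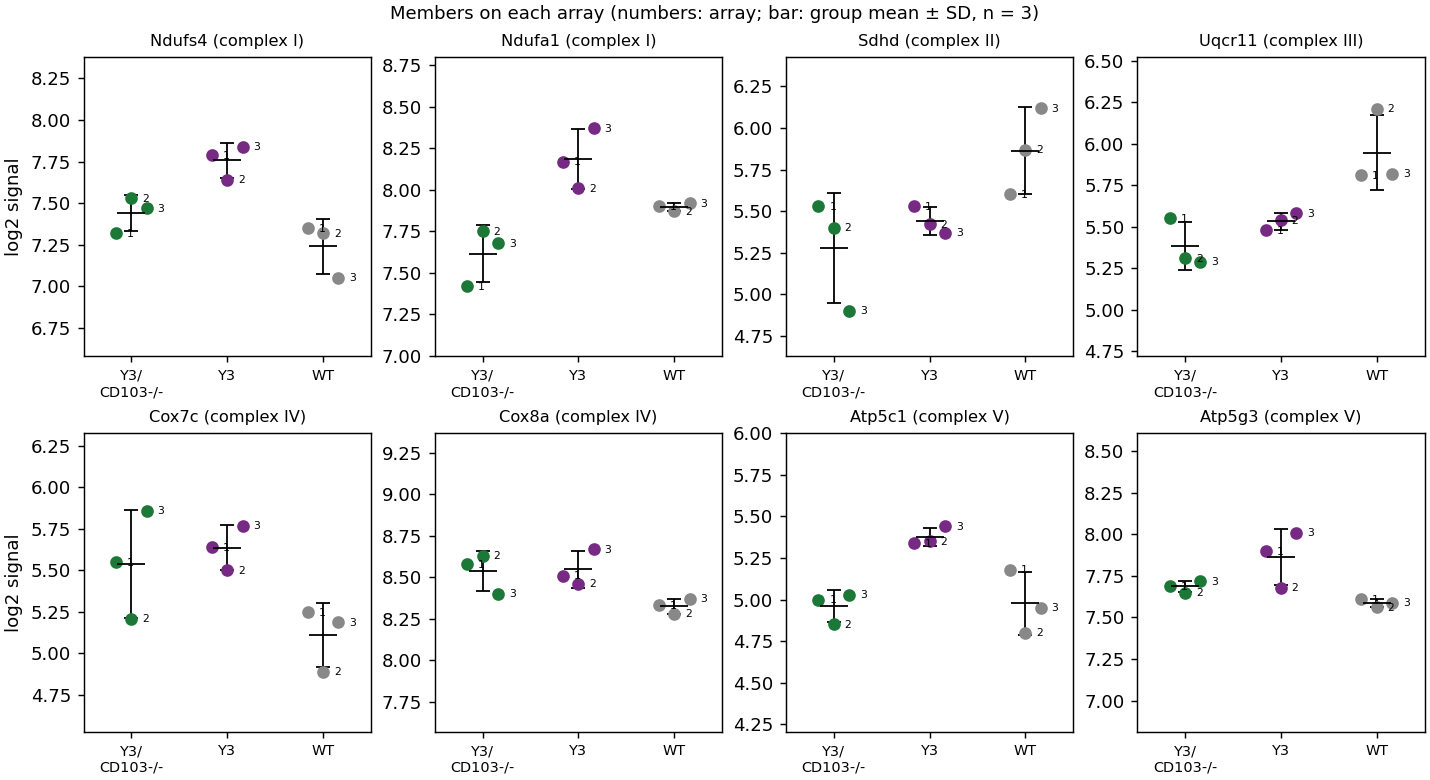
Log2 signal (y axis) of 8 members on each array, with the array number beside each point and the group mean ± SD (n = 3) as bars, for Y3/CD103-/-, Y3 and WT. Uqcr11 and Sdhd lie below all WT arrays in both Y3 groups, Ndufs4 and Atp5c1 lie above WT in Y3 (means of 7.76 and 7.24 for Ndufs4), and Ndufa1 is lowest in Y3/CD103-/-.

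Counted over both comparisons with WT, which share their WT arrays, 4 members stood apart from WT on the same side in both Y3 groups, Sdhd and Uqcr11 below and Cox8a and Atp5g3 above. That was 2 below and 2 above of the 85 tested members, against 256 below and 845 above of all 12792 genes.

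Assembly factors, which help build the complexes without remaining in them, had medians of -0.04, 0.29 and -0.38 in Y3/CD103-/- versus WT, Y3 versus WT and Y3/CD103-/- versus Y3, over 11 tested. Ndufaf2, which acts late in complex I assembly, read 4.59, 3.69 and 3.84 in Y3/CD103-/- and 4.67, 4.36 and 4.73 in Y3, against 3.71, 4.27 and 3.67 in WT. Its difference of 0.70 in Y3 versus WT (SE 0.25, adjusted p 0.208) was the largest of any member there, and the lowest Y3 array lay just above the highest WT array. With the epithelial mean as a covariate, the Y3 difference of Ndufaf2 was 1.19 (adjusted p 0.0893). Ndufaf3, which acts early in complex I assembly, read 4.51, 4.62 and 4.53 in Y3/CD103-/- and 5.12, 4.76 and 5.26 in Y3, against 4.40, 4.19 and 4.87 in WT. It differed by 0.56 in Y3 versus WT (SE 0.20, adjusted p 0.207) and by -0.49 between the Y3 groups (adjusted p 0.468). Sdhaf4, which binds the flavoprotein of complex II, read 3.03, 3.78 and 3.72 in Y3/CD103-/-, 4.28, 4.07 and 4.47 in Y3 and 3.59, 3.29 and 4.18 in WT. It gave the widest spread between the Y3 groups, -0.76 (SE 0.26, adjusted p 0.417). Ndufaf5 and Ndufaf8, complex I factors, differed by -0.34 (adjusted p 0.636) and 0.32 (adjusted p 0.503) in Y3/CD103-/- versus WT.

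In Y3 versus WT, the subunits that mitochondrial DNA encodes lay on the other side of 0 from most nuclear members. Of the 13, 10 had a feature of their own: ND1 to ND6 with ND4L in complex I, CYTB in complex III, and COX1 and COX3 in complex IV. Their mean was 11.37, 11.33 and 11.25 on the Y3/CD103-/- arrays and 11.08, 11.34 and 10.89 on the Y3 arrays, against 11.37, 11.50 and 11.42 on the WT arrays. In Y3 versus WT all 10 were lower, by 0.18 to 0.45, with a median of -0.32, and 6 did not overlap, against 4.93% of all genes. That median was -0.21 without Y3 array 3 and -0.44 without Y3 array 2, and all 10 stayed lower without any 1 array. None passed the test (limma, smallest adjusted p 0.232), 3 had an unadjusted p under 0.05, and 1 passed with a mean-dependent robust prior. In Y3/CD103-/- versus WT all 10 were lower too, with a median of -0.11 (smallest adjusted p 0.574) that was -0.06 without Y3/CD103-/- array 3. Between the Y3 groups 9 of 10 were higher in Y3/CD103-/-, with a median of 0.22 that was 0.12 without Y3 array 3 and 0.34 without Y3 array 2.

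COX3, a core subunit of complex IV, read 11.68, 11.69 and 11.56 in Y3/CD103-/- and 11.33, 11.63 and 11.03 in Y3, against 11.72, 11.77 and 11.74 in WT, a Y3 difference of -0.41. ND2, a proton-pumping subunit of complex I, read 10.50, 10.69 and 10.58 in Y3/CD103-/- and 10.39, 10.64 and 10.21 in Y3, against 10.75, 10.87 and 10.83 in WT, a Y3 difference of -0.40. These RNAs are cut from long shared transcripts of mitochondrial DNA, so the 10 readings are not independent of each other. Another 28 tested genes, not selected by chromosome, had a mean signal of at least log2 10.6. Their array means ran from 11.18 to 11.25. In Y3 versus WT 16 of them were higher and 12 lower, 4 of these below -0.2, with a median of 0.06. With the arrays rescaled, the mtDNA median in Y3 versus WT was -0.21 under quantile normalization and -0.49 with each array centred, and all 10 stayed below WT under each.

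The Y3 arrays differed among themselves alike for the members and for all genes. Over the 85 members the array means were 6.25, 6.39 and 6.31 in Y3/CD103-/- and 6.53, 6.37 and 6.61 in Y3, against 6.28, 6.38 and 6.32 in WT, so that Y3 array 2 sat within the WT range and arrays 1 and 3 above it. All 12792 genes averaged 4.77, 4.78 and 4.81 in Y3/CD103-/- and 4.92, 4.80 and 4.94 in Y3, against 4.78, 4.76 and 4.73 in WT, and within the Y3/CD103-/- and WT groups the order of the arrays was not that of the members. With the mean of all genes taken off each array, the members averaged 1.53 ± 0.07 in Y3/CD103-/-, 1.62 ± 0.05 in Y3 and 1.57 ± 0.06 in WT, within the spread of the arrays. The complexes differed in this. Complex I read 1.37, 1.36 and 1.49 in Y3, above WT at 1.25, 1.35 and 1.31, and 1.16, 1.38 and 1.29 in Y3/CD103-/-. The lowest Y3 array, at 1.36, lay next to the highest WT array, at 1.35. Complex II averaged 1.28 ± 0.07 in Y3 and 1.45 ± 0.17 in WT. Complexes III, IV and V averaged 1.78, 2.21 and 2.69 in Y3, beside 1.81, 2.21 and 2.69 in WT. On the 2 Y3 arrays where the nuclear members were highest, the mtDNA-encoded subunits were lowest, and the spread of all values was widest, with an SD of 1.87 and 1.88 against 1.70 to 1.77 on the other 7 arrays. Those arrays were also the most alike of the 9 pairs within groups (r = 0.984 over the tested genes). The part of that array-wide pattern in the differences of single members was not tested.

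**Figure D3:**
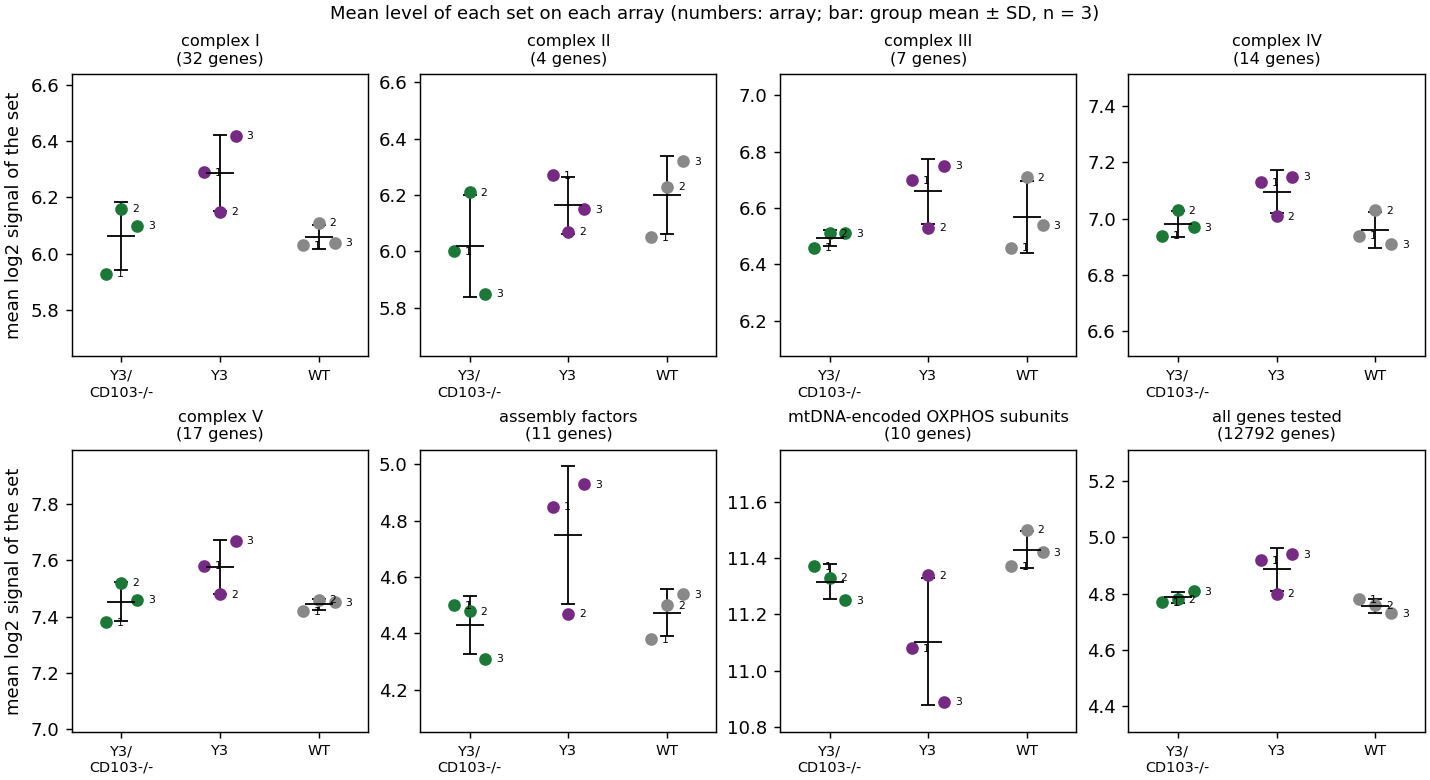
Mean log2 signal (y axis, each panel spanning the same range of log2 units) of each complex, of the assembly factors, of the mtDNA-encoded subunits and of all tested genes on each array, with array numbers and group mean ± SD (n = 3). Y3 arrays 1 and 3 are highest for complex I, complex V and all genes and lowest for the mtDNA-encoded subunits, at 11.08 and 10.89.

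Rescaling moved the members as it moved all genes. In Y3 versus WT, the members' median of 0.20 became 0.07 with quantile normalization and 0.04 with each array centred on its median tested gene, beside 0.04 and -0.02 for all genes. The share of members above 0 became 69.4% and 56.5%, beside 56.5% and 47.3% of all genes. With the epithelial mean as a covariate the median was 0.19, and with Y3 arrays 1 and 3 averaged as 1 sample it was 0.17. No scaling brought any member past the test. With the tested genes cut into 4 equal bands of signal, the brightest band held 49 members with a median of 0.17 in Y3 versus WT, beside 0.18 for all its genes, and the next band held 23 members with 0.24 beside 0.23. The 2 dimmer bands held 9 members with 0.29 beside 0.13, and 4 members with -0.18 beside 0.01.

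**Figure D4:**
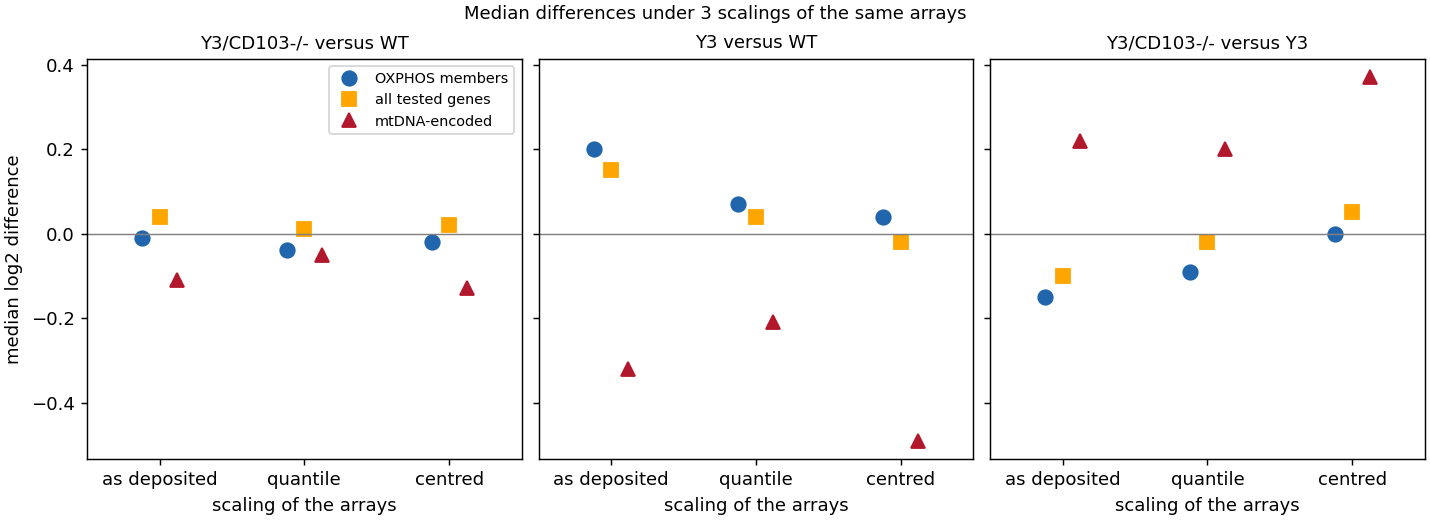
Median log2 difference (y axis) of the OXPHOS members, of all tested genes and of the mtDNA-encoded subunits in the 3 comparisons, with the values as deposited, quantile normalized, or centred on each array's median tested gene. Members and all genes shift together between scalings, with members at 0.20, 0.07 and 0.04 in Y3 versus WT, while the mtDNA-encoded subunits stay below 0 there.

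Genes that work beside the complexes were read out from lists chosen for their role. Of 16 electron, nucleotide and phosphate carriers tested, 0 were called in any comparison, and in Y3 versus WT 14 were higher and 2 lower, with a median of 0.17 against 0.15 for all genes. Cyc1, which carries cytochrome c1 in complex III under a symbol outside the rule, read 5.93, 5.97 and 5.94 in Y3/CD103-/-, 6.40, 6.49 and 6.41 in Y3 and 5.75, 6.17 and 6.14 in WT. Its Y3 arrays lay above all others, by 0.42 over WT (adjusted p 0.221), with -0.49 between the Y3 groups (adjusted p 0.383). Of 35 further assembly factors, 0 were called, and 27 were higher and 8 lower in Y3 versus WT (77.1% higher, against 70.5% of all genes, with a median of 0.20 against 0.15). With the mean-dependent robust prior, 1 of them was called in each comparison with WT. Cox17, the copper chaperone of complex IV, read 7.65, 7.43 and 7.66 in Y3, against 7.13, 7.21 and 6.91 in WT, a difference of 0.50 (adjusted p 0.155). Cox20, which chaperones a core subunit of complex IV, came nearest to a call: 6.76, 6.71 and 6.74 in Y3/CD103-/- and 7.19, 7.31 and 7.30 in Y3, against 7.28, 7.44 and 7.23 in WT, a difference of -0.58 between Y3/CD103-/- and WT (limma adjusted p 0.0924).

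Of 13 regulators of mitochondrial biogenesis and 15 tricarboxylic acid cycle genes, 0 were called in any comparison. Their medians in Y3 versus WT were 0.16 and 0.12, with 10 and 12 higher. Esrra, a nuclear receptor known to drive genes of oxidative metabolism, read 4.08, 3.39 and 4.05 in Y3/CD103-/-, 4.51, 4.29 and 4.81 in Y3 and 4.24, 4.27 and 4.60 in WT. Its Y3/CD103-/- arrays lay below all others, by -0.53 versus WT and -0.70 versus Y3, neither of which passed. Suclg2, the GTP-forming succinyl-CoA ligase subunit, differed by -0.51 in Y3/CD103-/- versus WT and did not pass.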

How the data were processed

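The deposited table holds log2 signal values of 39137 features on 9 arrays, made with RMA, per the submitters' processing notes. Values from 0.115 to 14.05, with array medians of 3.15 to 3.23, show a log2 scale. For RMA, its settings and the genome build were not given in the sources used. The platform annotation paired 23521 features with 1 gene, 1814 with several and 13802 with none. The brightest single-gene feature of each gene was kept, and a gene was tested if it exceeded its own array's median on at least 3 arrays.

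Group means were fitted with limma 3.58.1 (lmFit, eBayes, R 4.3.3) over all 9 arrays without a block (10.8 degrees of freedom), with 2-sided p-values adjusted by Benjamini-Hochberg over all 12792 tested genes. The number of arrays limits the precision, and an exact 2-sided permutation test of 3 against 3 could not go below 0.1. The members and lists were chosen with earlier results of these data known. The members named were, in each comparison, the 3 of smallest p in complexes I, IV and V and the 2 of smallest p in complexes II and III and among the assembly factors, with the isoform families. Other genes were chosen after their values were seen. Alternatives changed the filter, the handling of several features, the scaling, the prior, array weights, the arrays in the fit and the replicate block, and left out each array. Averaging Y3 arrays 1 and 3 and the epithelial covariate were chosen after seeing the data. Motifs were searched on both strands in RefSeq promoters of GRCm38.p6.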

Additional observations from a re-analysis of the deposited data

How the results depend on the processing

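Over 20 alternatives per comparison, an OXPHOS member was called in 1, the mean-dependent robust prior in Y3 versus WT, where 1 member (Ndufs4, adjusted p 0.0306) passed; leaving out any replicate called 0. Over all genes, Y3 versus WT called 101, against 52 with no filter on dim genes, 346 with the robust prior, 346 with array weights, 63 with only the 2 groups in the fit, 12 with Y3 arrays 1 and 3 averaged, 13 with the epithelial covariate, and 8 to 119 without 1 replicate. Y3/CD103-/- versus WT called 107, against 54, 309, 60, 17, 62 and 36 in the same order, and 28 to 70 without 1 replicate. Y3/CD103-/- versus Y3 called 1, against 2 with the filter at 6 arrays, 3 with the mean of a gene's features, 10 with the robust prior, 9 with array weights, and 1 to 2 without 1 replicate. The replicate numbers did not pair the arrays: correlations of same-numbered deviations ran from -0.04 to 0.11, and with the replicate block 54, 55 and 1 genes were called and no member.

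The members' median in Y3 versus WT was 0.07 with quantile normalization and 0.04 with centred arrays, against 0.20, and 0.13 to 0.24 without 1 replicate. In Y3/CD103-/- versus WT it ran from -0.07 to 0.06 without 1 replicate. In Y3/CD103-/- versus Y3 it was 0 with centred arrays, against -0.15, and -0.23 to -0.13 without 1 replicate. The called genes in Y3 versus WT were 79 higher and 22 lower as deposited, 46 and 32 with quantile normalization and 46 and 54 with centred arrays. The causes were not tested. With 3 arrays a group, the unadjusted 95% interval of the median member in Y3 versus WT reached 0.39 log2 to either side. A call after adjustment over all genes needed a larger difference than that. Readings near the array median, as for Atp5g1, Ndufaf6 and Cox7a1, are close to background.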

Other observations

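Another 8 genes with such symbols were only on features annotated to several genes and entered no comparison of the report, since their signal cannot be assigned to 1 gene. These features were tested in a separate fit of all features that exceeded the array median on at least 3 arrays. The adjusted p was taken over those features, so it is not on the scale of the members' values. None of the shared features passed. The feature of Ndufb4 and its paralogs Ndufb4b and Ndufb4c, complex I subunit genes, read 5.19, 5.51 and 5.16 in Y3/CD103-/-, 5.91, 5.92 and 5.89 in Y3 and 5.27, 5.76 and 5.66 in WT, with a limma difference of -0.62 between the Y3 groups (SE 0.18, adjusted p 0.501). The brighter feature of Cox6c, a complex IV subunit gene paired with the predicted gene Gm6265, read 9.51, 9.67 and 9.67 in Y3/CD103-/-, 10.18, 9.78 and 10.34 in Y3 and 9.51, 9.76 and 9.61 in WT, a difference of 0.48 in Y3 versus WT (SE 0.18, adjusted p 0.307) and -0.48 between the Y3 groups (adjusted p 0.551). The brighter feature of Ndufs6, shared with its copy Ndufs6b, read 7.92, 7.59 and 8.05 in Y3, against 7.67, 7.72 and 7.21 in WT, which overlap, with a difference of 0.32 (adjusted p 0.504). Its dimmer feature read 3.75, 3.94 and 3.80 in Y3, against 3.26, 3.31 and 3.39 in WT, a difference of 0.51 (SE 0.20, adjusted p 0.316).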
